A study of Mus musculus with 6 samples.

Results

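The 10 genes described here encode sensors of foreign or misplaced nucleic acid and the proteins that act next to them. They were chosen by name, as the rows of the count table whose symbol is Ddx58, Ifih1, Dhx58, Tlr3, Mavs, Mb21d1, Tmem173, Trex1, Zbp1 or Irf3, and all 10 were found among 24951 genes. The mutant libraries came from pups with genotype Smad4 f/f;Cdh5-CreERT2, in which a Cre recombinase induced by tamoxifen is made in endothelial cells and removes floxed Smad4, the partner shared by SMAD proteins of the BMP and TGF-beta branches. The control libraries came from Smad4 f/f pups without Cre, labelled as wildtype, so both groups carry the floxed alleles and no group has Cre with unfloxed Smad4. All pups were taken at postnatal day 5, and their lung cells were captured on beads with an antibody to CD31, an endothelial surface protein. The labels give neither the day and dose of tamoxifen nor the sex of the pups. There were 3 mutant and 3 control libraries of polyadenylated RNA.

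RIG-I-like receptors (encoded by Ddx58, Ifih1 and Dhx58) detect viral double-stranded RNA in the cytosol and, apart from Dhx58, signal through the adaptor MAVS on mitochondria. In the DNA branch, cGAS (Mb21d1) binds cytosolic DNA and makes a cyclic dinucleotide that activates STING (Tmem173). Both branches lead to phosphorylation of the transcription factor IRF3 and to type I interferon, and several of the sensors are themselves interferon-induced genes. STING is also known for a human vasculopathy that affects the lung and is caused by gain-of-function alleles.

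Promoters are shown for the members that changed and for which a window was at hand, because genes induced by interferon often carry the interferon-stimulated response element. RefSeq promoter windows (GRCm38.p6, 250 bases before to 50 after each start) were matched for 7 of the 10 genes, and not for Dhx58, Tmem173 and Zbp1. The letters GAAANNGAAA were searched on both strands. A match was present in the windows of 2 of these 7 genes, Ddx58 and Ifih1, and in 3.99% of the 27025 genes with a window (3.44% of all 32851 windows). Windows of Tlr3, Mavs, Mb21d1, Trex1 and Irf3 held none, which says only that these letters are not in those windows. The letters TTCNNNGAA, the gamma-activated site searched the same way, were in no window of the 7 genes and in windows of 9.55% of all genes (8.3% of all windows). Both matches lay just after the start, at transcript positions 3 to 12 in Ddx58 on the antisense strand (chr4:40239814-40239823) and 33 to 42 in Ifih1 on the sense strand (chr2:62646214-62646223), within annotated exons of the 2 genes. The 30 bases around each match follow, with the match in capitals, and after them the 250 bases before each start, which hold no match. Both genes lie on the minus strand, and the sequences are written 5′ to 3′ on that strand.
Ddx58 match, chr4:40239804-40239833: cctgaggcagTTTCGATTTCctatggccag
Ifih1 match, chr2:62646206-62646235: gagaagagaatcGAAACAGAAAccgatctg
Ddx58 upstream, chr4:40239826-40240075: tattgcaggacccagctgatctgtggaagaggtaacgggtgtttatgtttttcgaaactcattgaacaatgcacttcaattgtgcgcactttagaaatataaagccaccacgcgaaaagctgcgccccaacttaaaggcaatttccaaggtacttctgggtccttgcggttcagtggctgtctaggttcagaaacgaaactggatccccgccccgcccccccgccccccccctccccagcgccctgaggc
Ifih1 upstream, chr2:62646256-62646505: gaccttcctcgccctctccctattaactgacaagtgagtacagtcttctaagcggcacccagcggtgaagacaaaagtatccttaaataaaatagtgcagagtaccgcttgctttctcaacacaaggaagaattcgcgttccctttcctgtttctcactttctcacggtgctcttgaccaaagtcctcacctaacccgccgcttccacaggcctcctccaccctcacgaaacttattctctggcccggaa

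Reads assigned to genes came to 16041786 to 20172318 per mutant library and 14093564 to 21113926 per control library. Smad4, on chromosome 18, averaged 85.3 ± 11.1 CPM in mutant and 182 ± 5.74 CPM in control libraries (SD, n = 3 each), where CPM are counts scaled to a common library size. Summed levels of 10 endothelial markers, Pecam1, Cdh5, Kdr, Tie1 and Cldn5 among them, were 9192 to 9524 CPM in mutant and 8765 to 9739 CPM in control libraries. Of these 10, edgeR called 0 higher and 1 lower, Tek, the endothelial receptor for angiopoietins, named after its values were seen, at 541, 497 and 588 CPM in mutant replicates 1, 2 and 3, against 747, 749 and 799 CPM in control replicates 1, 2 and 3 (log2 fold change -0.50, adjusted p = 0.0128). The call of Tek ended without mutant replicate 2 or control replicate 3 (adjusted p = 0.076 and 0.054). Transcripts of other lung cells were present in every library, such as the alveolar epithelial gene Sftpc at 1016 to 1101 CPM in mutant and 734 to 1359 CPM in control libraries. Counts of Xist and of 4 Y-linked genes placed 2 female libraries and 1 male library in each group, the male ones being replicate 1 of both groups. In these bulk samples, more cells of a type and more RNA per cell cannot be told apart.

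The 3 cytosolic RNA helicases rose in the mutant libraries, while no member of the DNA branch passed the test and the adaptor Mavs and the factor Irf3 stood close to control levels. Of the 9 members with enough reads to be tested, 3 rose, 0 fell and 6 did not pass, at an adjusted p under 0.05 in edgeR's quasi-likelihood test. Over all 14934 tested genes 3.27% were called, 1.93% higher and 1.34% lower. At an unadjusted p under 0.05, 6 members were higher and 0 lower, as were 7.55% and 6.46% of all tested genes. DESeq2 called 6 higher and 0 lower, and limma-voom 3 and 0. In 6 of the 9 members all mutant libraries stood above all control libraries, which held for 11.6% of all tested genes. In 0 members all mutant libraries stood below all controls, as 9.04% of all tested genes did, and 20.6% of all tested genes showed no overlap in either direction. The median log2 fold change of mutant over control was 0.55 over the 9 members and -0.0024 over all tested genes.

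**Figure D1:**
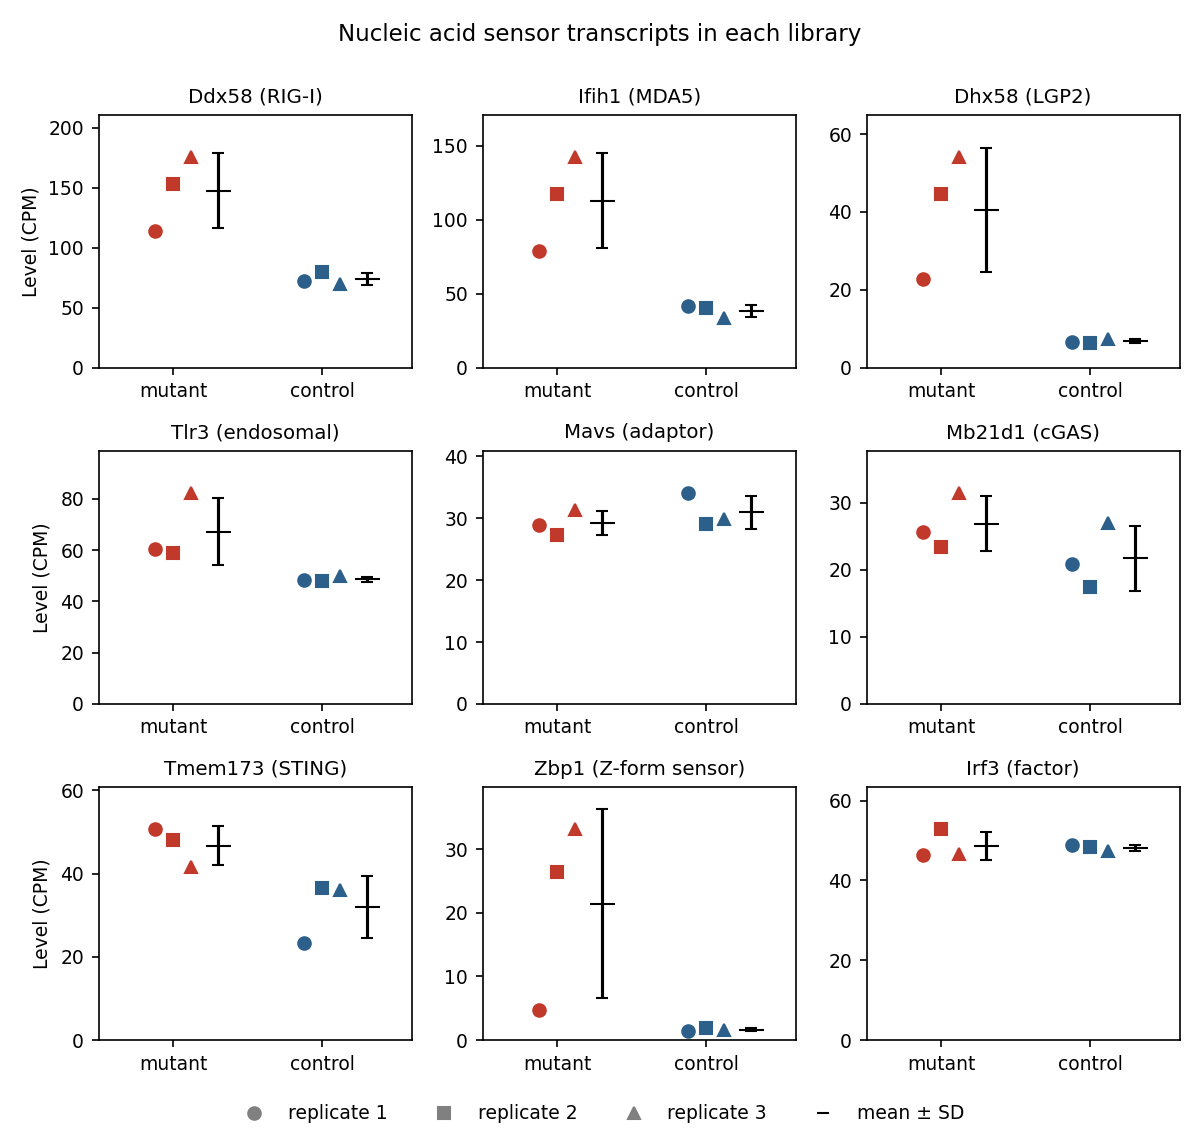
Level in CPM of the 9 tested members in each library, with mutant libraries (red) left of control libraries (blue), a marker shape per replicate and the mean ± SD beside each group (n = 3). The 3 mutant libraries lie above the 3 control libraries for Ddx58, Ifih1, Dhx58, Tlr3, Tmem173 and Zbp1, and the groups overlap for Mavs, Mb21d1 and Irf3.

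Ddx58 (ENSMUSG00000040296.15, chromosome 4 from 40203773 to 40239828 of GRCm38, minus strand) encodes RIG-I, which recognises the triphosphate end of short double-stranded RNA. It measured 114, 153 and 176 CPM across mutant replicates 1, 2 and 3, against 72.1, 79.8 and 70.1 CPM in control replicates 1, 2 and 3. Every mutant library was above every control library, and mutant replicate 1 was the lowest of the mutants. The group means were 147.5 ± 31.5 CPM in mutant and 74.0 ± 5.14 CPM in control libraries (SD, n = 3 each). This gave a log2 fold change of 1.00 ± 0.15 (SE; adjusted p = 0.00732, edgeR), a 1.99-fold higher level. Without mutant replicate 2 the call ended (adjusted p = 0.063).

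Ifih1 (ENSMUSG00000026896.14, chromosome 2 from 62595798 to 62646255, minus strand) encodes MDA5, the helicase that assembles on long double-stranded RNA. Its transcript measured 78.9, 117 and 142 CPM across mutant replicates 1, 2 and 3, against 41.4, 40.2 and 33.3 CPM in control replicates 1, 2 and 3. The groups did not overlap, and mutant replicate 1 was again the lowest mutant library, at 1.91 times the level of control replicate 1. The log2 fold change was 1.56 ± 0.21 (SE; edgeR adjusted p = 0.00666), 2.95-fold higher. The call was kept in all 14 alternatives, with an adjusted p of up to 0.0484.

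Dhx58 (ENSMUSG00000017830.15, chromosome 11 from 100694884 to 100704271, minus strand) encodes LGP2, a helicase that lacks the signalling domains of RIG-I and MDA5 and modulates both. It measured 22.9, 44.6 and 54.1 CPM across mutant replicates 1, 2 and 3, against 6.49, 6.41 and 7.33 CPM in control replicates 1, 2 and 3. The control libraries lay within 1 CPM of each other, and the spread of the mutants was wider, with a mean of 40.5 ± 16.0 CPM in mutant and 6.74 ± 0.511 CPM in control libraries (SD, n = 3 each). This gave a log2 fold change of 2.58 ± 0.31 (SE; edgeR adjusted p = 0.00548), 6.00-fold higher. Leaving out control replicate 1 or 3 ended the call (adjusted p = 0.0564 and 0.0543).

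Tlr3, the endosomal receptor for double-stranded RNA (chromosome 8 from 45395665 to 45411080, minus strand), measured 60.6, 58.8 and 82.2 CPM across mutant replicates 1, 2 and 3, against 48.2, 48.0 and 49.8 CPM in control replicates 1, 2 and 3. All mutant libraries were above all controls, yet Tlr3 did not pass the test, with a log2 fold change of 0.47 ± 0.13 (SE; edgeR adjusted p = 0.100). DESeq2 called it higher (adjusted p = 0.0338). Mavs, the mitochondrial adaptor of RIG-I and MDA5 (chromosome 2 from 131234063 to 131248025, plus strand), measured 28.9, 27.4 and 31.3 CPM across mutant replicates 1, 2 and 3, against 34.1, 29.1 and 29.8 CPM in control replicates 1, 2 and 3. Its groups overlapped, and the log2 fold change was -0.09 ± 0.11 (SE; edgeR adjusted p = 0.775).

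In the DNA branch, Mb21d1, the cGAS gene (chromosome 9 from 78430526 to 78443237, minus strand), measured 25.7, 23.5 and 31.5 CPM across mutant replicates 1, 2 and 3, against 20.8, 17.4 and 27.0 CPM in control replicates 1, 2 and 3. Replicate 3 was the highest library of each group and the groups overlapped, with a log2 fold change of 0.30 ± 0.17 (SE; edgeR adjusted p = 0.486). Tmem173, the STING gene (chromosome 18 from 35733679 to 35740554, minus strand), measured 50.6, 48.0 and 41.6 CPM across mutant replicates 1, 2 and 3, against 23.3, 36.5 and 36.1 CPM in control replicates 1, 2 and 3. The mutants were all above the controls, of which replicate 1 was the lowest. The log2 fold change of Tmem173 was 0.55 ± 0.17 (SE) and did not pass in edgeR (adjusted p = 0.155), whereas DESeq2 called it higher (adjusted p = 0.0374). Without mutant replicate 2 its edgeR adjusted p was 0.473.

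Trex1, the exonuclease that clears cytosolic DNA before cGAS can bind it, had 1 count in mutant replicate 1, 0 in the other mutant libraries and 0 in each control library, and could not be tested. A count of 0 allows up to 0.188 CPM in the mutant and up to 0.214 CPM in the control libraries, the highest level that 3 counts make in a library of each group, for counting error only. In GENCODE M21 all 1147 exonic bases of Trex1 (chromosome 9 from 109057933 to 109059734, minus strand) are also exonic bases of Atrip on the same strand, and the count table holds another feature there, Atrip-trex1, with 10, 13 and 16 counts in mutant replicates 1, 2 and 3 and 17, 8 and 18 counts in control replicates 1, 2 and 3. Atrip itself had 0 to 1 counts per library. No difference in Trex1 is read from these counts, and the CPM limit above holds only for reads assigned to Trex1. Whether reads shared by these features were set aside as ambiguous was not tested.

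Zbp1 encodes a sensor of left-handed (Z-form) nucleic acid that triggers cell death through RIPK3, and it had the largest fold change of the 9 tested members. The gene (ENSMUSG00000027514.14, chromosome 2 from 173206612 to 173218923, minus strand) measured 4.72, 26.5 and 33.1 CPM across mutant replicates 1, 2 and 3, against 1.45, 1.85 and 1.54 CPM in control replicates 1, 2 and 3. These came from 86, 422 and 679 reads in the mutants and 31, 26 and 32 reads in the controls. All mutant libraries were above the controls, but mutant replicate 1 stood far below the other two. The log2 fold change was 3.74 ± 0.77 (SE) and did not pass in edgeR (adjusted p = 0.0713). It passed in DESeq2 (adjusted p = 6.8e-05), with sex as a covariate (0.0169) and without mutant replicate 1 (2.43e-06), and over all 14 alternatives its adjusted p reached 0.32.

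Irf3 (chromosome 7 from 44997648 to 45002848, plus strand), the factor that both branches activate by phosphorylation rather than by new transcript, measured 46.4, 52.8 and 46.7 CPM across mutant replicates 1, 2 and 3, against 48.8, 48.3 and 47.3 CPM in control replicates 1, 2 and 3. The groups overlapped, and the log2 fold change was 0.014 ± 0.095 (SE; edgeR adjusted p = 0.965). Its sign turned with upper-quartile scaling and without mutant replicate 2.

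The helicases and Zbp1 shared the same order of mutant libraries, with replicate 1 lowest and replicate 3 highest, and Tmem173 had the opposite order. Relative to the control mean of log2 CPM, mutant replicates 1, 2 and 3 stood at 0.62, 1.05 and 1.25 for Ddx58 and at 1.54, 4.02 and 4.34 for Zbp1. Replicate 1 was the male library of each group. Between the male libraries the ratio of mutant to control was 1.57 for Ddx58, 1.91 for Ifih1, 3.53 for Dhx58 and 3.26 for Zbp1. Between the means of the female libraries (n = 2 each) it was 2.19 for Ddx58, 3.53 for Ifih1, 7.19 for Dhx58 and 17.6 for Zbp1. For Tmem173 it was 2.17 in the male and 1.23 in the female libraries, and for Mb21d1 1.23 and 1.24. With 1 male library a group, sex and the single library cannot be told apart, and the difference between sexes was not tested. With sex as a covariate the 3 helicases kept their calls.

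**Figure D2:**
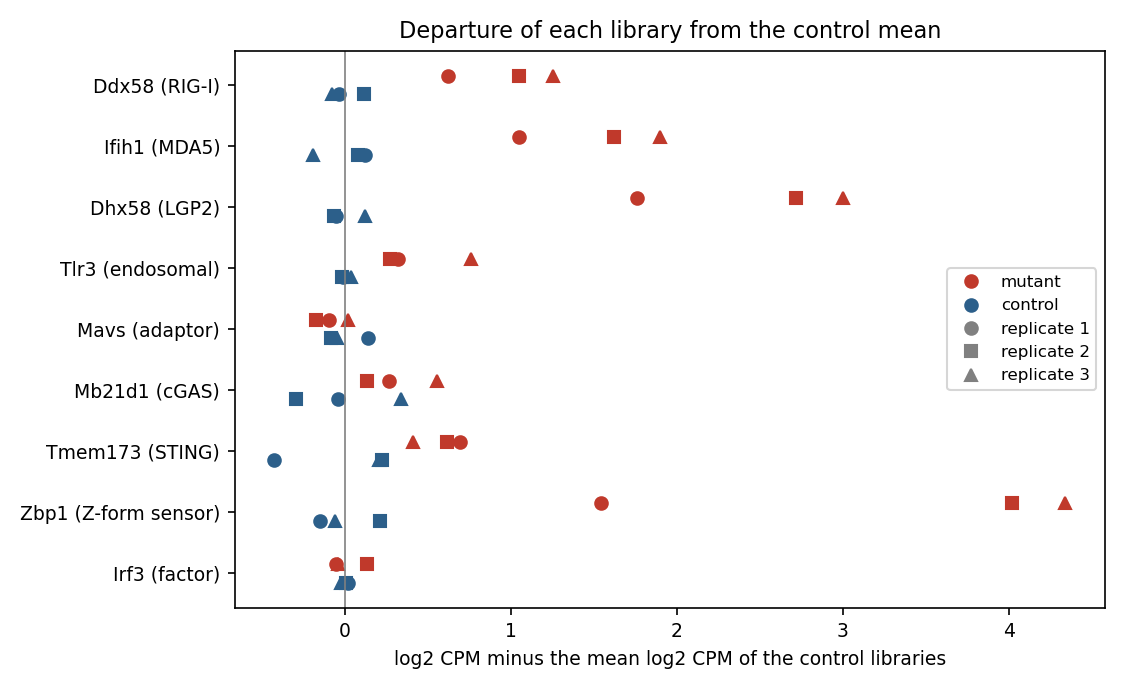
Log2 CPM of each library minus the mean log2 CPM of the control libraries, for the 9 tested members, with mutant libraries in red above control libraries in blue and a marker shape per replicate. Zbp1 spans 1.54 to 4.34 among the mutants, and Mavs and Irf3 lie around 0 in both groups.

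RNA sensing members were set against DNA sensing members, with Ddx58, Ifih1, Dhx58, Tlr3 and Mavs in the first set and Mb21d1 and Tmem173 in the second, since Trex1 had no usable level. The mean log2 fold change was 1.10 over the 5 RNA sensing members and 0.43 over the 2 DNA sensing members, a difference of 0.68. Within libraries, the RNA sensing mean stood at 0.73, 1.10 and 1.38 above the control mean in mutant replicates 1, 2 and 3, and at 0.0311, 0.00239 and -0.0335 in control replicates 1, 2 and 3. The DNA sensing mean stood at 0.478, 0.376 and 0.482 in mutant replicates 1, 2 and 3, and at -0.234, -0.0368 and 0.27 in control replicates 1, 2 and 3. The RNA minus DNA difference was 0.252, 0.723 and 0.903 in mutant replicates 1, 2 and 3, against 0.265, 0.0392 and -0.304 in control replicates 1, 2 and 3. The groups overlapped, because mutant replicate 1 was just below control replicate 1. The SD of this difference within groups was 0.31. No test was made of this contrast, because the members were chosen with results of these data known. Within the RNA sensing set the members were uneven, with log2 fold changes of -0.09 for Mavs to 2.58 for Dhx58.

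Levels of different genes were compared per kilobase of annotated exon (CPM per kb, GENCODE M21). In the mutant libraries Ddx58 came first with 20.9 ± 4.46, followed by Tmem173 with 17.1 ± 1.70, Irf3 with 14.1 ± 1.05, Ifih1 with 13.8 ± 3.91, Tlr3 with 12.9 ± 2.50 and Dhx58 with 12.4 ± 4.89 CPM per kb (SD, n = 3). Mavs stood at 8.73 ± 0.586, Mb21d1 at 6.51 ± 0.999 and Zbp1 at 6.08 ± 4.21 CPM per kb. Only Mavs and Mb21d1 were neighbours in this order whose libraries did not overlap. In the control libraries Irf3 came first with 14.0 ± 0.226, then Tmem173 with 11.7 ± 2.74, Ddx58 with 10.5 ± 0.729, Tlr3 with 9.35 ± 0.189, Mavs with 9.27 ± 0.797, Mb21d1 with 5.27 ± 1.18, Ifih1 with 4.69 ± 0.532, Dhx58 with 2.06 ± 0.156 and Zbp1 with 0.457 ± 0.0599 CPM per kb. The control libraries of Tmem173 and Ddx58, of Tlr3 and Mavs, and of Mb21d1 and Ifih1 overlapped, and the other neighbours did not. Per kilobase, Ifih1 and Dhx58 were thus below Mavs in every control library. In the mutants Ifih1 was above Mavs in every library, and Dhx58 in 2 of 3. For Ifih1 the control order rests on the annotated exon length, 8165 bases against 3345 for Mavs. Without length scaling Ifih1 measured 41.4, 40.2 and 33.3 CPM in control replicates 1, 2 and 3, above Mavs with 34.1, 29.1 and 29.8 CPM. Whether the annotated lengths hold for the transcripts in these cells was not tested.

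**Figure D3:**
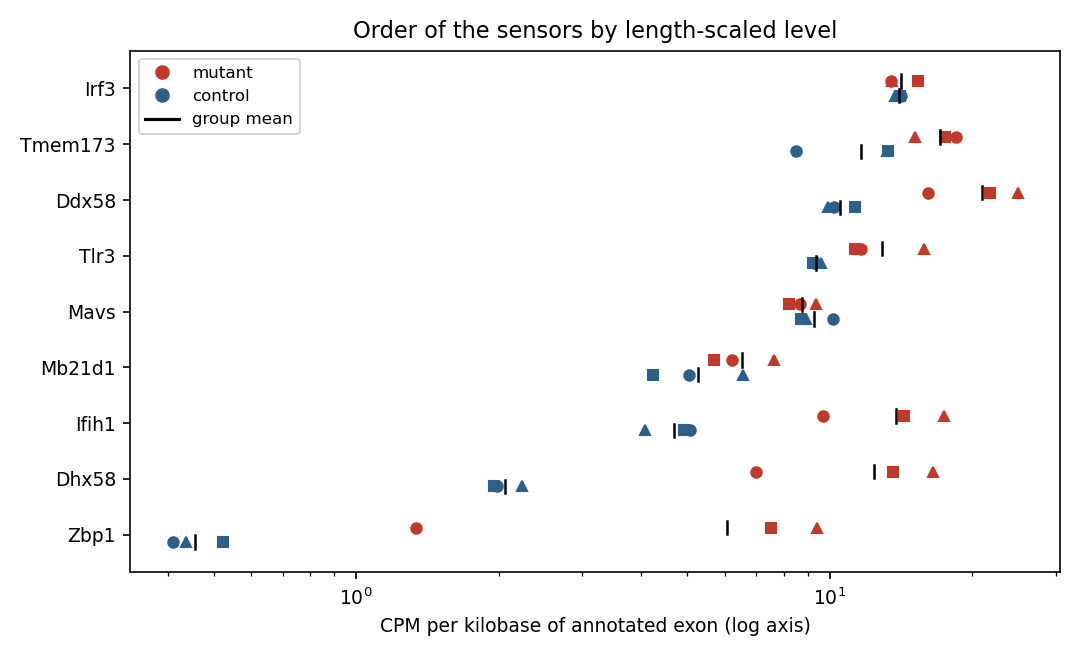
CPM per kilobase of annotated exon on a log axis for the 9 tested members, ordered by their control mean, with mutant libraries in red above control libraries in blue and a bar at each group mean. In control libraries the means run from 0.457 (Zbp1) to 14.0 (Irf3), and in mutant libraries from 6.08 (Zbp1) to 20.9 (Ddx58).

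Some other genes of the sensing pathways rose, and most were not called. Of 68 tested genes in 5 lists, 5 rose, 0 fell and 63 did not pass in edgeR. Among all tested genes 3.27% were called, 1.93% higher and 1.34% lower. In 14 of the 68 all mutant libraries stood above all control libraries, against 11.6% of all tested genes. At an unadjusted p under 0.05, 14 of the 68 were higher and 0 lower, against 7.55% and 6.46% of all tested genes. DESeq2 called 7 higher and 0 lower, and limma-voom 6 and 0. Of the 5, 3 kept their call without mutant replicate 2, and 2 without control replicate 1 or control replicate 3. The median log2 fold change of the 68 genes was 0.09. Of 15 genes that bind RNA or act with RNA sensors, 3 rose and the median was 0.05. Eif2ak2, the kinase PKR that double-stranded RNA activates, measured 108, 121 and 154 CPM across mutant replicates 1, 2 and 3, against 50.7, 68.6 and 64.7 CPM in control replicates 1, 2 and 3 (log2 fold change 1.06 ± 0.16 SE, edgeR adjusted p = 0.00662). Ddx60, a helicase described as a partner of RIG-I, measured 32.7, 49.2 and 70.0 CPM across mutant replicates 1, 2 and 3, against 12.2, 15.6 and 12.6 CPM in control replicates 1, 2 and 3 (log2 fold change 1.92 ± 0.27 SE, adjusted p = 0.0115). Zc3hav1, the antiviral zinc finger protein ZAP, had a log2 fold change of 0.48 ± 0.098 (SE; adjusted p = 0.0258). The groups did not overlap for any of these 3 genes. The call of Ddx60 ended without mutant replicate 2 or control replicate 1 or 3 (adjusted p up to 0.0786), and that of Zc3hav1 without mutant replicate 2 or 3 or control replicate 1 or 3 (up to 0.129).

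Of 18 genes that sense DNA or act on STING, 0 were called by edgeR or DESeq2, and the median was 0.14. At an unadjusted edgeR p under 0.05, 2 of the 18 were higher and 0 lower, against 7.55% and 6.46% of all tested genes. Ifi204, named after its values were seen, was called higher by limma-voom (adjusted p = 0.0481) and by edgeR without control replicate 3 (adjusted p = 6.12e-05), and by no other alternative. The 2 with the smallest p were Slc19a1, a carrier that can import cyclic dinucleotides, with a log2 fold change of 0.50, and Xrcc5, which encodes the DNA end-binding protein Ku80, with 0.36 (edgeR adjusted p = 0.240 and 0.345). Of 20 transducers shared by the branches, the median was 0.06 and 1 rose, against 1.93% of all tested genes. This was Irf7, the interferon-induced relative of Irf3, at 59.0, 128 and 164 CPM in mutant replicates 1, 2 and 3, against 13.1, 16.6 and 14.2 CPM in control replicates 1, 2 and 3 (log2 fold change 3.01 ± 0.39 SE, adjusted p = 0.0128). The call of Irf7 ended without control replicate 1, 2 or 3 and with no low-count filter (adjusted p up to 0.125). The other 19 genes of this list, kinases and adaptors for the most part, were not called by edgeR, DESeq2 or limma-voom.

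Of 11 genes that limit sensing of the cell's own nucleic acid, 1 rose, Adar, against 1.93% of all tested genes, and the median was 0.22. At an unadjusted edgeR p under 0.05, 4 of the 11 were higher and 0 lower, against 7.55% and 6.46% of all tested genes. In 5 of the 11 all mutant libraries stood above all control libraries, against 11.6% of all tested genes. Adar, which edits double-stranded RNA so that MDA5 does not bind it, measured 142, 187 and 213 CPM across mutant replicates 1, 2 and 3, against 91.7, 92.1 and 98.7 CPM in control replicates 1, 2 and 3. All mutants were above all controls, with a log2 fold change of 0.94 ± 0.13 (SE) and an edgeR adjusted p of 0.00525, and the call was kept in all 14 alternatives. DESeq2 called 3 genes of this list, Adar, Samhd1 and Pnpt1, the other two named after their values were seen. Of the 4 cell death partners of Zbp1, 0 were called by edgeR, DESeq2 or limma-voom. At an unadjusted edgeR p under 0.05, 1 was higher, against 7.55% of all tested genes. That gene was Mlkl, the executor of necroptosis, with a log2 fold change of 0.41 (edgeR adjusted p = 0.228).

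**Figure D4:**
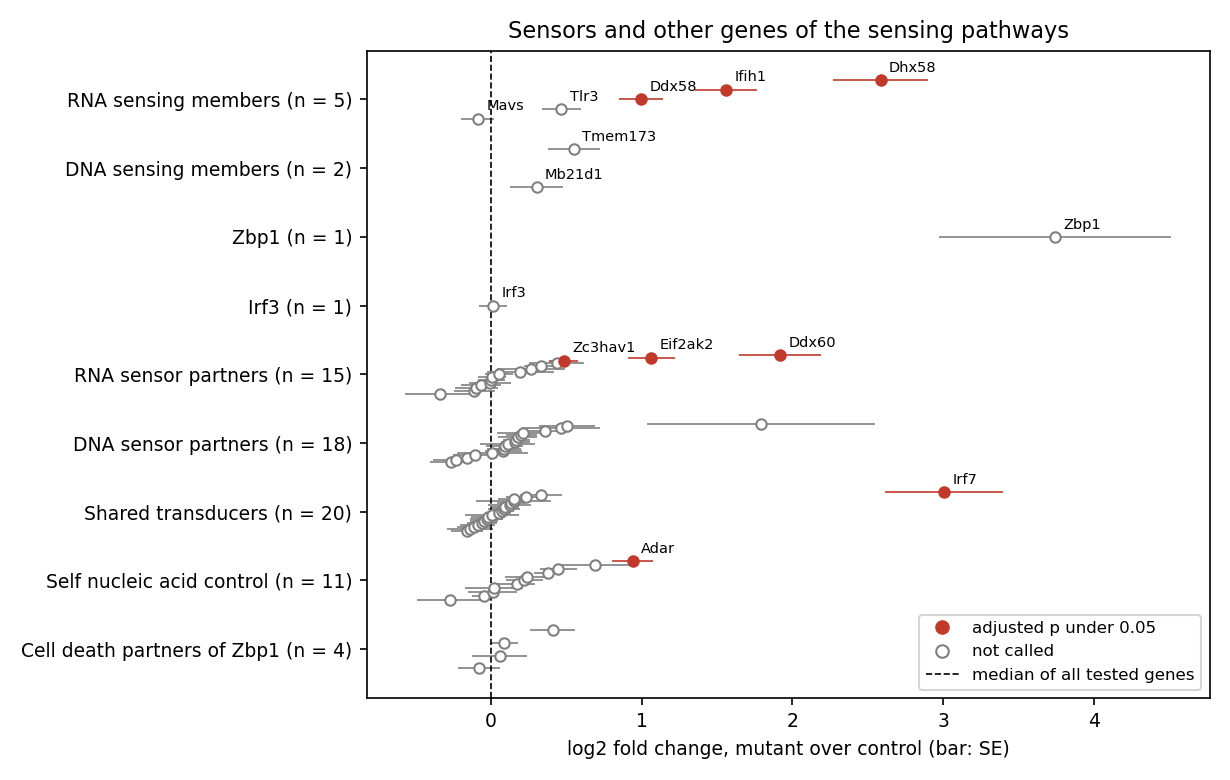
Log2 fold change of mutant over control with its SE for the 9 tested members and 68 genes of 5 pathway lists, with red filled points for an adjusted p under 0.05 and a dashed line at the median of all tested genes. The called genes are Ddx58, Ifih1 and Dhx58 among the members, and Eif2ak2, Ddx60, Zc3hav1, Irf7 and Adar among the others.

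Interferon genes were at or near the detection limit. None of 21 genes for type I, II and III interferon had enough reads to be tested, and 13 had 0 counts in every library. Ifnb1, the interferon that IRF3 induces first, had 2, 2 and 0 counts in mutant replicates 1, 2 and 3 and 0, 0 and 0 counts in control replicates 1, 2 and 3, at or under the 3 counts taken as the floor in every library. The highest count of any interferon gene in a library was 6, for Ifnz in mutant replicate 3 and in control replicate 3. A difference in interferon transcripts was not detectable at this depth.

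For each member that rose, the 3 other tested genes with the most similar levels over the 6 libraries (Pearson r of log2 CPM) were found, as a description without a test. They were Sp100, Ddx60 and Trim30a for Ddx58, Ifi47, Gbp7 and Phf11d for Ifih1, and Adar, Irf7 and Cmpk2 for Dhx58, each with an r of at least 0.995. All 6 points of such an r share the split between mutant and control libraries. Among the members, the r of Ddx58 was 0.993 with Ifih1, 0.986 with Dhx58, 0.986 with Zbp1 and 0.896 with Tlr3. Its r was 0.672 with Tmem173, 0.557 with Mb21d1, 0.191 with Irf3 and -0.358 with Mavs.

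Immune cells also express these sensors, and their markers were measured in the same libraries. Of 13 macrophage and monocyte markers, 0 were called by edgeR and 3 had an unadjusted p under 0.05, 2 higher and 1 lower, against 14% of all tested genes. Their summed levels were 825 to 879 CPM in mutant and 804.5 to 958.5 CPM in control libraries. Lyz2 alone averaged 404.6 CPM over all libraries, so these sums rest largely on 1 gene. The log2 fold change was above 0 for 9 of the 13 markers, with a median of 0.20 and a range of -0.47 to 1.30. DESeq2 called 1 of them higher and limma-voom 0, and edgeR called 2 higher without mutant replicate 1. Of 8 neutrophil markers 0 were called by edgeR, DESeq2 or limma-voom and 0 had an unadjusted p under 0.05, with sums of 89.4 to 131 CPM in mutant and 58.1 to 130.2 CPM in control libraries. Sums of 11 lymphocyte markers were 208 to 269 CPM in mutant and 176 to 192.5 CPM in control libraries, which did not overlap. Of the 9 tested, edgeR and limma-voom each called 0. An unadjusted edgeR p under 0.05 was found for 4 of the 9, all higher, against 7.55% of all tested genes. In 4 of the 9 all mutant libraries stood above all control libraries, against 11.6% of all tested genes. Ms4a1, the B cell gene for CD20 and the most abundant of them, had a log2 fold change of 0.58 (edgeR adjusted p = 0.107). Ms4a1 was called higher by DESeq2 (adjusted p = 0.0134), with the replicate block (0.0258) and without mutant replicate 2 (0.0337). Sums of 10 dendritic cell markers were 340 to 460 CPM in mutant and 265.5 to 326 CPM in control libraries. Without Bst2, the most abundant of them and itself an interferon-induced gene, they were 154 to 186.5 CPM in mutant and 179.5 to 241 CPM in control libraries. Of the 8 tested, Bst2 rose (log2 fold change 1.46, adjusted p = 0.0111) and Clec9a, named after its values were seen, fell (log2 fold change -0.83, adjusted p = 0.00264). The call of Bst2 ended without control replicate 1, 2 or 3 (adjusted p up to 0.0623). None of these immune markers was at 0 in every library, and their part in the change of the sensors was not tested.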

How the data were processed

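RNA sequencing was done on CD31-selected lung cells of 3 mutant and 3 control pups. The deposited values are raw counts per gene symbol, with no normalization by the authors. The submitters' processing notes name mm10 as the build and list DESeq2 without a version. For the aligner, counting tool and use of strand, nothing is given in the sources used here. One sentence of the labels' protocols calls the mice HHTf/f and HHTiECKO where the rest name Smad4, and does not explain it. Reads with no feature (53.9% to 58.2% of a library) and ambiguous reads (0.288% to 0.366%) were left out. Small parts of exons of Dhx58, Tlr3, Mb21d1 and Irf3 (2.56% to 7.32% of exonic bases) overlap a gene on the opposite strand, whose reads may not be told apart.

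Counts were analysed with edgeR 4.0.16 in R 4.3.3: filterByExpr (14934 genes kept), TMM scaling, robust dispersions and the two-sided quasi-likelihood F test over all 6 libraries, Benjamini-Hochberg adjusted over all tested genes. SE is the size of the log2 fold change divided by the square root of F. Libraries of a group differed by more than sampling noise (chi-square per degree of freedom at least 12.9). P-values cover the spread between these libraries. Alternatives were DESeq2 1.42.0, limma-voom 3.58.1, other scalings and filters, a replicate block, a sex covariate and leaving out each library. The fitting code was tested on simulated data. Annotation is GENCODE M21 (GRCm38, the assembly of mm10) and promoters are from RefSeq, GRCm38.p6. Trex1 had no fold change and was left out of the DNA sensing mean. Genes open to naming were the 10 members, Smad4 and called genes of each pathway list. Where a list had none called, its 2 genes with the smallest p were open to naming. So were interferon genes with a count and the most abundant markers. The text prints part of these. Members, lists and rules were chosen with earlier results of these data known.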

Additional observations from a re-analysis of the deposited data

How the results depend on the processing

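Of 14 alternatives, the count of members called higher, 3 in edgeR, became 6 in DESeq2 (adding Tlr3, Tmem173 and Zbp1), and ran from 2 to 4 when a library was left out. No alternative called a member lower. Over all genes 488 were called, against 747 in DESeq2 and 211 to 428 when a library was left out. Of these, 288 were higher (445 in DESeq2, 131 to 257 without a library) and 200 lower (302, and 80 to 204). The count of other pathway genes called higher, 5 in edgeR, was 2 to 5 without a library. Smad4 kept its call in every alternative, with a log2 fold change of -1.17 to -0.99. Irf3 turned to -0.00017 with upper-quartile scaling and ran from -0.048, without mutant replicate 2, to 0.045 when a library was left out, and the cause was not tested. The RNA minus DNA difference of mean log2 fold changes ran from 0.52 to 0.84. The labels tie the replicate numbers to nothing that libraries share, although number 1 was the male library of both groups: deviations from the group means correlated at -0.0092, 0.027 and 0.14 between libraries numbered 1, 2 and 3. With the replicate block 466 genes and the same 3 members were called. Zbp1, with 26 to 32 reads per control library and 86 to 679 reads per mutant library, had the largest SE of the members.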

Other observations

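Ifi204, a mouse relative of the human DNA sensor IFI16, was chosen after its values were seen. It measured 22.0, 23.0 and 22.9 CPM across mutant replicates 1, 2 and 3, against 1.96, 2.42 and 14.9 CPM in control replicates 1, 2 and 3. Control replicate 3 was far above the other control libraries, and the log2 fold change was 1.79 ± 0.76 (SE; edgeR adjusted p = 0.381). Without control replicate 3 it was 3.38 and passed (edgeR adjusted p = 6.12e-05), and limma-voom over all libraries also called Ifi204 higher (adjusted p = 0.0481). Over the other 12 alternatives the adjusted p was at most 0.666 and none passed. It belongs to a family of similar genes between which reads can be split.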
